A study of Mus musculus with 60 samples.

Results

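Lcn2, Lrg1, Serpina3n and Cp encode 4 secreted proteins of the acute phase response, and their 4 rows among the 770 genes of the nanoString nCounter Mouse Neuroinflammation Panel were selected by gene symbol. Female Balb/C mice, 13 weeks of age, had received 67NR cells, which grow as a mammary carcinoma that does not metastasize (tumor-bearing), or DMEM, the culture medium (vehicle injected), and 5 mice of each kind were sampled at mid-dark (ZT19) and 5 at mid-light (ZT7). Zeitgeber time (ZT) counts hours from lights on. Tissue was collected 25 days after injection from mice perfused with saline, and hippocampus, hypothalamus and brain stem came from the same 20 animals, so that every mouse contributed up to 3 samples. Values were present for 56 of 60 samples, and the 4 without values were all from vehicle injected mice. In hypothalamus 3 of these mice remained for mid-dark and 4 for mid-light, in brain stem 4 remained at mid-dark, and all other groups had 5. A log2 value is the authors' normalized probe count on a log2 scale, so a difference of 1 is a doubling; each gene has its own probe, and levels are compared here within a gene and not between genes. Depth is unknown, since raw counts were not used. The 4 genes were chosen with results of the tumor contrast known, among them the high position of Lcn2, and the tumor minus vehicle differences of the members are therefore a description with no p value.

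The acute phase response is the change in secreted plasma proteins that follows infection, injury or cancer. It is best known from the liver, where interleukin-6 type cytokines act through STAT3, and interleukin-1 through NF-kappaB and C/EBP factors. Lcn2 (lipocalin 2) binds bacterial siderophores and so withholds iron, and in brain it can be made by endothelial cells, choroid plexus and reactive glia. Lrg1 (leucine-rich alpha-2-glycoprotein) is a secreted glycoprotein that modifies TGF-beta signalling in vessels. Serpina3n is an inhibitor of serine proteases and a commonly used marker of reactive astrocytes. Cp (ceruloplasmin) is a copper-carrying ferroxidase that oxidizes iron for its export from cells.

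The bases before the start of a gene are where such factors can bind, and they are shown for the 2 members with the largest tumor differences, Lcn2 and Lrg1, and for the one with the smallest, Serpina3n. The 250 bases upstream of the RefSeq start (GRCm38.p6) are chr2:32387740-32387989 on the minus strand for Lcn2, chr17:56121947-56122196 on the minus strand for Lrg1 and chr12:104406458-104406707 on the plus strand for Serpina3n. Capitals mark a match on either strand to a STAT element (TTCNNNGAA), a form of the kappaB element (GGNNTTTCC) or a C/EBP element (TTGCNNAA).
Lcn2: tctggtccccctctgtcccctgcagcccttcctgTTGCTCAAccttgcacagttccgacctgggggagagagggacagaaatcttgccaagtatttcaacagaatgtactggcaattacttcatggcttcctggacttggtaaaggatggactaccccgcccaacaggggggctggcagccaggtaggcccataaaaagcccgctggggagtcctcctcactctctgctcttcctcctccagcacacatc
Lrg1: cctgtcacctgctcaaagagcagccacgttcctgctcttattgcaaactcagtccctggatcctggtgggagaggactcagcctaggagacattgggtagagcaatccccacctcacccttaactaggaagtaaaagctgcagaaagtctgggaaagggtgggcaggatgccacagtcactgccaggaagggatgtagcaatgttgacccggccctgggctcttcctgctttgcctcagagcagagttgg
Serpina3n: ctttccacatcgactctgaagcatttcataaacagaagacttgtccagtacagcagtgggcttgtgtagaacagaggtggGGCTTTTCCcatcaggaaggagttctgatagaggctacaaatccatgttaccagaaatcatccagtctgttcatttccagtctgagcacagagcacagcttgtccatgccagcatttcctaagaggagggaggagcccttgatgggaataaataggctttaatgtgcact
The Lcn2 window held 1 C/EBP match, TTGCTCAA, from base -216 to base -209, and the Serpina3n window 1 kappaB match, GGCTTTTCC, from base -170 to base -162. None of the 3 motifs matched in the Lrg1 window. Cp has 2 annotated starts on chromosome 3, and the window of the second held a kappaB match and a C/EBP match, while that of the first held none. Among 32851 windows of the same length in the table, 7.02% held the STAT letters, 4.93% the kappaB letters and 9.56% the C/EBP letters. A match is a description of the letters and not evidence of binding.

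In hippocampus, Lcn2 was on average 13.4-fold higher in tumor-bearing than in vehicle injected mice, and it was the gene with the largest difference on the panel in each of the 3 regions. At mid-dark its log2 values in tumor-bearing mice were 6.29, 7.42, 7.83, 7.38 and 7.38 (mice 3, 7, 11, 19 and 23), against 4.23, 2.87, 3.46, 3.55 and 3.84 in vehicle injected mice (mice 4, 8, 12, 28 and 32). At mid-light they were 7.17, 6.57, 8.49, 8.21 and 5.98 (mice 1, 5, 9, 13 and 29), against 4.16, 3.48, 3.32, 3.09 and 3.30 (mice 2, 6, 10, 22 and 30). The lowest tumor-bearing mouse was above the highest vehicle injected mouse. The tumor minus vehicle difference averaged over both phases was 3.74 (standard error 0.289), with 3.67 at mid-dark and 3.81 for mid-light. At mid-light the tumor-bearing mice spread more widely, with an SD of 1.07 against 0.573 at mid-dark.

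Lcn2 in brain stem was 9.91-fold higher in tumor-bearing mice. At mid-dark the values in tumor-bearing mice 3, 7, 11, 19 and 23 were 7.49, 7.79, 7.45, 7.97 and 8.13, against 5.05, 4.45, 5.12 and 3.62 in vehicle injected mice 4, 12, 28 and 32. At mid-light mice 1, 5, 9, 13 and 29 had 7.11, 6.96, 8.94, 8.06 and 6.45, against 4.46, 4.69, 4.37, 3.41 and 3.55 in mice 2, 6, 10, 22 and 30. These groups did not overlap either. The phase-averaged difference was 3.31 (standard error 0.294). RNA purity moved with the groups here: the absorbance ratio used to judge it had a median of 1.68 in tumor-bearing mice at mid-dark, with 3 of 5 samples under 1.8, against 1.98 in vehicle injected mice at mid-dark with none under 1.8. With only samples at 1.8 or above, the Lcn2 difference in brain stem was 3.41 (standard error 0.363), close to that over all samples.

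The Lcn2 difference was smallest in hypothalamus, 6.16-fold, where its standard error was also the largest of the 3 regions. At mid-dark the tumor-bearing mice 3, 7, 11, 19 and 23 had Lcn2 values of 6.39, 7.73, 6.6, 8.01 and 7.43, against 5.86, 4.43 and 3.38 in vehicle injected mice 4, 8 and 28. At mid-light mice 1, 5, 9, 13 and 29 had 5.82, 5.71, 8.36, 7.97 and 5.22, against 3.73, 4.69, 4.09 and 3.66 in mice 2, 6, 22 and 30. Over both phases the groups overlapped, since vehicle injected mouse 4 at mid-dark lay above 3 tumor-bearing mice at mid-light. The phase-averaged difference was 2.62 (standard error 0.479). In one fit over hippocampus, hypothalamus and brain stem, blocked by mouse, the Lcn2 difference in hippocampus exceeded that in hypothalamus by 1.10 (standard error 0.459) and that in brain stem by 0.42 (standard error 0.439), values given without a test because the tumor contrast chose the gene. Mice 9 and 13 had the 2 highest Lcn2 values at mid-light in every region, and without them the differences were 3.39 in the hippocampus, 2.11 in the hypothalamus and 2.98 in the brain stem.

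**Figure D1:**
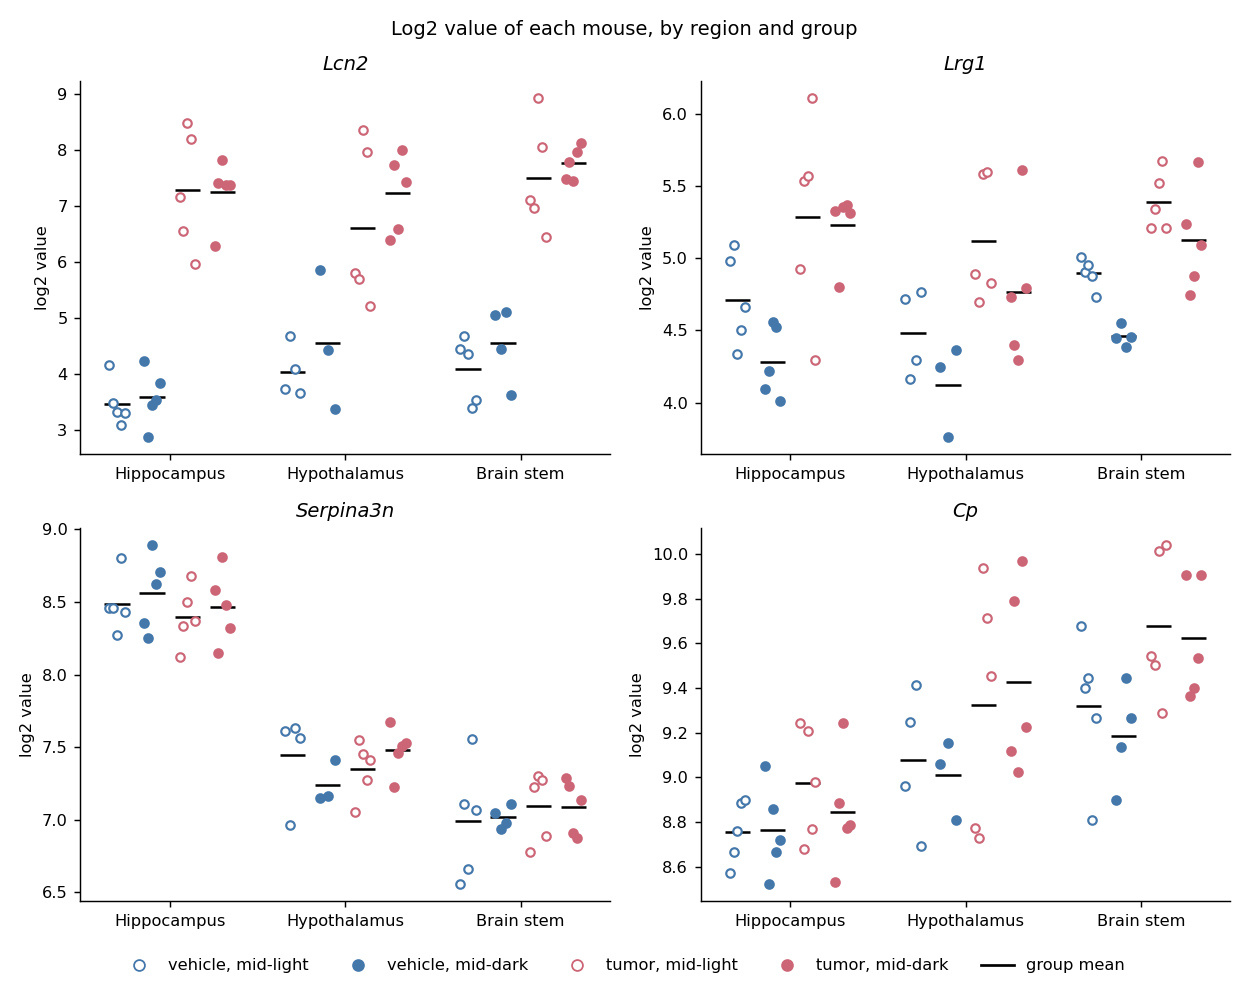
Log2 value of each gene (y axis, one panel per gene) in every sample, by region and group (x axis). Each point is 1 mouse, open at mid-light and filled at mid-dark, blue for vehicle injected and red for tumor-bearing mice, and black bars are group means. Lcn2 of tumor-bearing mice lies between 5.22 and 8.94 and that of vehicle injected mice between 2.87 and 5.86, and Serpina3n of hippocampus lies above that of the other regions in both tumor groups.

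Lrg1 was 1.70-fold higher in tumor-bearing mice in hippocampus, 1.56-fold in hypothalamus and 1.5-fold in brain stem. In hippocampus at mid-dark the tumor-bearing mice 3, 7, 11, 19 and 23 had 5.32, 4.80, 5.36, 5.37 and 5.31, against 4.09, 4.22, 4.56, 4.52 and 4.01 in vehicle injected mice 4, 8, 12, 28 and 32. At mid-light mice 1, 5, 9, 13 and 29 had 4.92, 5.54, 5.57, 6.11 and 4.29, against 4.98, 5.09, 4.33, 4.50 and 4.66 in mice 2, 6, 10, 22 and 30. The mid-light groups overlapped, with tumor-bearing mouse 29 under every vehicle injected mouse of that phase. In brain stem the tumor-bearing mice ran from 4.75 to 5.67 with a median of 5.23 (n = 10), and the vehicle injected mice from 4.39 to 5.01 with a median of 4.73 (n = 9). In hypothalamus the ranges were 4.29 to 5.61 (median 4.81, n = 10) and 3.76 to 4.77 (median 4.29, n = 7). Over both phases together the ranges overlapped in each region, but within a phase some did not. In brain stem all tumor-bearing mice were above all vehicle injected mice at mid-dark (4.75 to 5.67 against 4.39 to 4.55) and at mid-light (5.21 to 5.67 against 4.73 to 5.01), which held for 1.56% and 0.909% of the panel, and in hippocampus the same was so at mid-dark, for 0.779% of the panel. In hypothalamus the groups overlapped at both phases. The phase-averaged differences were 0.76 (standard error 0.178) in the hippocampus, 0.64 (0.196) in the hypothalamus and 0.58 (0.098) in the brain stem, which placed Lrg1 at ranks 3, 3 and 8 of the genes tested.

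Cp and Serpina3n had smaller differences between tumor groups. Cp had phase-averaged differences of 0.15 (standard error 0.095) in the hippocampus, 0.33 (0.195) in hypothalamus and 0.40 (0.128) in brain stem. Its brain stem values ran from 9.29 to 10.04 in tumor-bearing and from 8.81 to 9.68 in vehicle injected mice. Serpina3n had differences of -0.09 (0.099), 0.07 (0.103) and 0.09 (0.115) in the same order, each smaller than its standard error. The plot of tumor differences shows the members apart by size, with Serpina3n on both sides of 0.

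**Figure D2:**
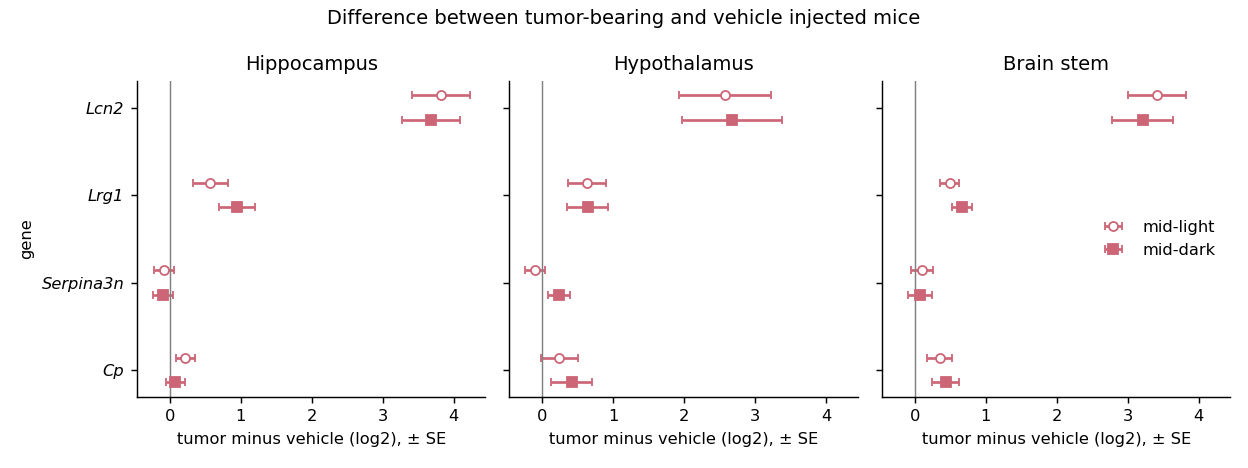
Tumor minus vehicle difference in log2 value (x axis) of each member (y axis), one panel per region. Points are estimates of the linear model at mid-light (open circles) and mid-dark (filled squares), and bars are 1 standard error. Lcn2 lies between 2.57 and 3.81, Lrg1 between 0.50 and 0.95, Cp between 0.08 and 0.44 and Serpina3n between -0.10 and 0.24.

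Over all genes tested in the phase-averaged contrast, limma's adjusted p value was under 0.05 with a higher level in tumor-bearing mice for 0.52% in the hippocampus, 0.26% in the hypothalamus and 1.04% in the brain stem. Of the 4 members, Lcn2 was among them in each region and Lrg1 in brain stem, counts that the choice of the genes fixes. In the fit over the 3 regions with the mouse as a block, the genes that passed were 0.909% in the hippocampus (7 genes in place of 4), 0.39% in the hypothalamus (3 in place of 2) and 0.779% in the brain stem (6 in place of 8). Lcn2 was again among them in each region, while Lrg1 was among them in hippocampus and not in brain stem. Genes for which the lowest tumor-bearing mouse exceeded the highest vehicle injected mouse over both phases made up 0.13% of the panel, 1 gene, in each region, and Lcn2 was that gene in hippocampus and brain stem.

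Whether the tumor difference of a member depended on time of day is not part of the phase-averaged contrast, and it was tested as an interaction (tumor difference at mid-dark less that at mid-light). No member passed. For Lcn2 the interaction was -0.14 in hippocampus (standard error 0.578, limma adjusted p = 0.957), 0.10 in hypothalamus (0.958, adjusted p = 1) and -0.20 in brain stem (0.588, adjusted p = 0.999). These standard errors leave room for changes of more than 1 on the log2 scale, so that a difference between phases was not detectable rather than absent. For Lrg1 the interaction was 0.38 in hippocampus (standard error 0.356, adjusted p = 0.815), 0.0041 in hypothalamus (0.392, adjusted p = 1) and 0.17 in brain stem (0.195, adjusted p = 0.999). The largest for Serpina3n was 0.33 in hypothalamus (0.206, adjusted p = 1), and the largest for Cp was 0.17 in hypothalamus (0.390, adjusted p = 1). No gene of the panel had an adjusted p under 0.05 for the interaction by limma's moderated or ordinary p values in any single region (0% in each), while 47, 20 and 28 genes had an unadjusted moderated p under 0.05 in hippocampus, hypothalamus and brain stem. Leaving out mouse 3 or mouse 11 gave 1 gene in hippocampus. Averaged over the 3 regions, with the mouse as a block, an alternative added after the data were seen, the interaction was -0.06 for Lcn2 (standard error 0.443, adjusted p = 0.989), 0.18 for Lrg1 (0.207, adjusted p = 0.953), 0.09 for Serpina3n (0.139, adjusted p = 0.953) and 0.04 for Cp (0.191, adjusted p = 0.989). In that average 1 gene passed, 0.13% of the panel, Gadd45g at -0.42 (standard error 0.085, adjusted p = 0.00845), which is no member and is named after its value was seen, and 0 genes passed with only samples at a purity ratio of 1.8 or above.

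Dark minus light differences within a tumor group were tested for each member, and none passed in the fit over all groups. For Lrg1 they were negative in vehicle injected mice of all 3 regions. In brain stem the vehicle injected mice 4, 12, 28 and 32 at mid-dark had 4.45, 4.55, 4.39 and 4.46, and mice 2, 6, 10, 22 and 30 at mid-light had 5.01, 4.90, 4.95, 4.88 and 4.73. All 5 mid-light values were above all 4 mid-dark values, which held for 2.6% of the panel in this region. The dark minus light difference there was -0.43 (standard error 0.142, limma adjusted p = 0.148), and the adjusted p was 0.0194 when only these 2 groups were fitted, without the tumor-bearing mice in the estimate of the spread. Over the alternatives that gave a value, other than leaving out a mouse, that adjusted p ran up to 0.247. In hippocampus the difference was -0.43 (standard error 0.252, adjusted p = 0.425) and in hypothalamus -0.36 (0.302, adjusted p = 0.930). Averaged over the 3 regions, with the mouse as a block, an alternative added after the data were seen, it was -0.41 (standard error 0.151, adjusted p = 0.100), at rank 765 of 770 from the most positive.

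In tumor-bearing mice the same average for Lrg1 was -0.23 (standard error 0.141, adjusted p = 0.446), with -0.05 in the hippocampus, -0.36 in the hypothalamus and -0.27 in the brain stem. Lcn2 had a positive average in both tumor groups, 0.34 in vehicle injected mice (standard error 0.323, adjusted p = 0.665) and 0.29 in tumor-bearing mice (0.302, adjusted p = 0.726), neither of which passed. Averages for Serpina3n were -0.02 and 0.06 and those for Cp -0.07 and -0.03 in vehicle injected and tumor-bearing mice. By the same test in single regions, 2.34%, 0.26% and 1.3% of the genes passed in vehicle injected mice and 1.04%, 1.04% and 0.78% in tumor-bearing mice, in hippocampus, hypothalamus and brain stem, and in the average over regions 6.75% and 4.94%.

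Serpina3n was higher in hippocampus than in the other regions. In vehicle injected mice its lowest, median and highest log2 values were 8.25, 8.46 and 8.89 in hippocampus (n = 10), 6.96, 7.41 and 7.63 in hypothalamus (n = 7) and 6.55, 7.04 and 7.56 in brain stem (n = 9). Tumor-bearing mice had ranges of 8.12 to 8.81, 7.05 to 7.67 and 6.78 to 7.30 (n = 10 each). All hippocampus values were above all values of the other regions, and hypothalamus and brain stem overlapped. How much of the panel separates regions in this way was not counted. Hippocampus exceeded brain stem by 1.53 (standard error 0.099, limma adjusted p = 5.86e-19), a 2.88-fold difference, and hypothalamus by 1.18 (0.107, adjusted p = 1.29e-13). Hypothalamus exceeded brain stem by 0.35 (0.111, adjusted p = 0.00652). Many genes differ between regions: 61% of the panel passed between hippocampus and hypothalamus, 70% between hippocampus and brain stem and 54.7% between hypothalamus and brain stem.

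The order of the other members was different, with the lowest mean in hippocampus for Lcn2 and Cp. In vehicle injected mice Lcn2 averaged 3.53 ± 0.437 in hippocampus (SD, n = 10), 4.26 ± 0.839 in hypothalamus (n = 7) and 4.30 ± 0.638 in brain stem (n = 9). Its hippocampus minus brain stem difference was -0.78 (standard error 0.316, limma adjusted p = 0.0256), which missed the threshold at an RNA purity ratio of at least 1.8 (adjusted p = 0.0645), with 16 added on the linear scale (adjusted p = 0.147) and without any one of mice 6, 8, 10 and 28. The hippocampus minus hypothalamus difference was -0.75 (0.342, adjusted p = 0.0530), and hypothalamus and brain stem were not told apart (-0.03, standard error 0.353, adjusted p = 0.953). For Cp, hippocampus minus brain stem was -0.49 (0.136, adjusted p = 0.00137), with means of 8.76 ± 0.164 in the hippocampus, 9.05 ± 0.250 in hypothalamus and 9.26 ± 0.276 in brain stem. Neither neighbouring pair in that order passed (adjusted p = 0.0899 and 0.265). Lrg1 averaged 4.50 ± 0.352, 4.33 ± 0.343 and 4.70 ± 0.244, and no pair of regions passed, the closest being hypothalamus minus brain stem at -0.37 (0.165, adjusted p = 0.0542).

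Lcn2 values of tumor-bearing mice were correlated between regions. Mouse 9 was highest in all 3 regions (8.49 in the hippocampus, 8.36 in the hypothalamus and 8.94 in the brain stem) and mouse 29 lowest (5.98, 5.22 and 6.45). Over the 10 tumor-bearing mice, Pearson's r between hypothalamus and brain stem was 0.93 (permutation p = 6e-05, adjusted p = 0.00144), with Spearman's rho of 0.90 (adjusted p = 0.0197). Between hippocampus and hypothalamus r was 0.80 (permutation p = 0.00508, adjusted p = 0.0244, rho 0.83 with adjusted p = 0.0539), and between hippocampus and brain stem 0.82 (permutation p = 0.00355, adjusted p = 0.0213, rho 0.74 with adjusted p = 0.0725). Adjusted p values are over the 24 correlations of this family, 4 members and 3 pairs of regions in both tumor groups, and the permutation tests are two-sided. Without the 2 mice farthest from the median of the first region, r was 0.94, 0.63 and 0.56 in the order given, so the relations with hippocampus rest in part on mice 9 and 29. With the mean of each phase subtracted, r was 0.94, 0.85 and 0.84.

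For Lrg1 the one close relation was between hypothalamus and brain stem in tumor-bearing mice, with r of 0.93 (permutation p = 0.0003, adjusted p = 0.0036, rho 0.78 with adjusted p = 0.0633) and 0.85 without the 2 farthest mice. Mice 13, 19 and 9 were the 3 highest in both regions. Hippocampus followed less closely, with r of 0.49 against hypothalamus (adjusted p = 0.405) and 0.55 against brain stem (adjusted p = 0.328). Serpina3n had r from 0.16 to 0.48 and Cp from -0.01 to 0.06 between regions of tumor-bearing mice, with no adjusted p under 0.05. In vehicle injected mice, where the numbers of mice with both values were 6 to 9, Lcn2 had r from 0.33 to 0.48 and none passed. The one relation that passed there was negative, Cp in hippocampus against Cp in brain stem (r = -0.86 over 9 mice, exact permutation p = 0.00295, adjusted p = 0.0213), with rho -0.81 (adjusted p = 0.0633) and r of -0.71 without the 2 farthest mice. Of the 24 correlations, 5 passed by r and 1 by rho. Whether tumor-bearing and vehicle injected mice differ in these correlations was not tested.

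**Figure D3:**
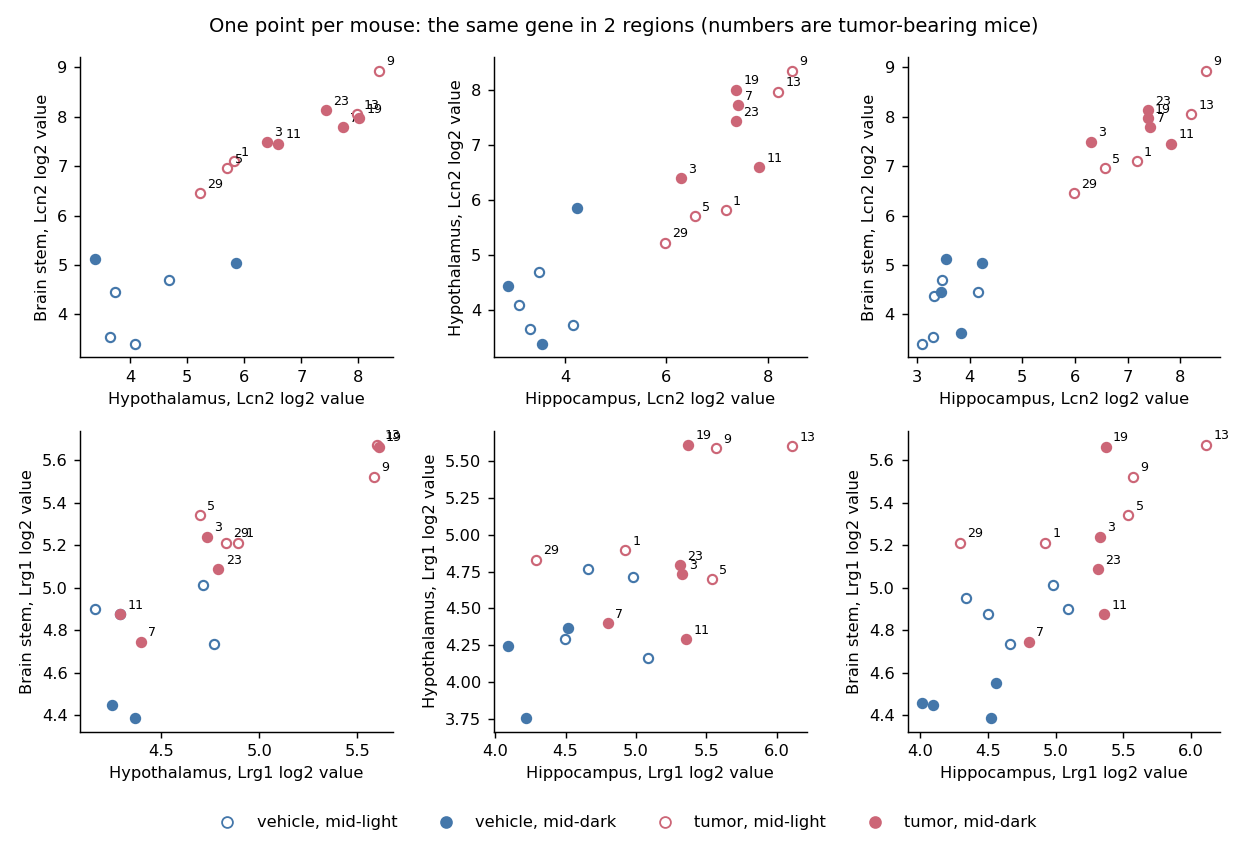
Log2 value of Lcn2 (top) and Lrg1 (bottom) in one region (x axis) against another region (y axis), one point per mouse with values in both. Red points with mouse numbers are tumor-bearing, blue points vehicle injected, filled at mid-dark and open at mid-light. In tumor-bearing mice, r between hypothalamus and brain stem is 0.93 for Lcn2 and 0.93 for Lrg1.

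Correlations between members within a region did not pass adjustment. Of 36 correlations between pairs of members within a region and tumor group, none had an adjusted p under 0.05 by r or rho, and 2 had an unadjusted permutation p under 0.05. Lcn2 and Lrg1 in tumor-bearing mice had r of 0.62 in hippocampus (permutation p = 0.0539, adjusted p = 0.479), 0.55 in hypothalamus (adjusted p = 0.479) and 0.30 in brain stem (adjusted p = 0.825). One of these was negative, Serpina3n and Cp in brain stem of vehicle injected mice, with r of -0.78 (exact permutation p = 0.0111, adjusted p = 0.234) and rho -0.63 over 9 mice, and r of -0.32 without mice 2 and 22. The other was Lcn2 and Cp in hypothalamus of tumor-bearing mice, with r of 0.78 (permutation p = 0.0130, adjusted p = 0.234) and rho 0.78 over 10 mice, and r of 0.95 without mice 9 and 29. Leaving out mouse 29 brought 1 of these correlations past the threshold.

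Lcn2 was also set against spleen and tumor mass in the 10 tumor-bearing mice. The mice with the highest Lcn2 at mid-light, 9 and 13, had spleens of 0.268 and 0.263 g, and mice 1, 5 and 29 of the same phase had 0.203, 0.202 and 0.184 g. Against spleen mass, r was 0.83 in brain stem (permutation p = 0.00279, adjusted p = 0.0670, rho 0.75), 0.82 in hypothalamus (permutation p = 0.00806, adjusted p = 0.0967, rho 0.73) and 0.52 in hippocampus (permutation p = 0.125, adjusted p = 0.299). Without the 2 mice farthest from the median spleen mass, r was 0.65, 0.64 and 0.09. None of the 24 correlations of members with masses passed adjustment, and 3 had an unadjusted permutation p under 0.05. Mouse 3 at mid-dark had the heaviest spleen, 0.269 g, with Lcn2 values near or under the middle of the group. Without it r was 0.94, 0.98 and 0.84 over 9 mice and 3 correlations passed, all of them Lcn2 with spleen mass (exact permutation tests, adjusted p = 0.00192, 0.000198 and 0.0295). Leaving out any other single mouse brought none of the 24 past the threshold. Mouse 3 is named because it alone changed the result, so these p values are a description and not a test. Against total tumor mass, r for Lcn2 was 0.59 in the hippocampus, 0.46 in the hypothalamus and 0.58 in the brain stem (adjusted p = 0.277, 0.378 and 0.277).

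**Figure D4:**
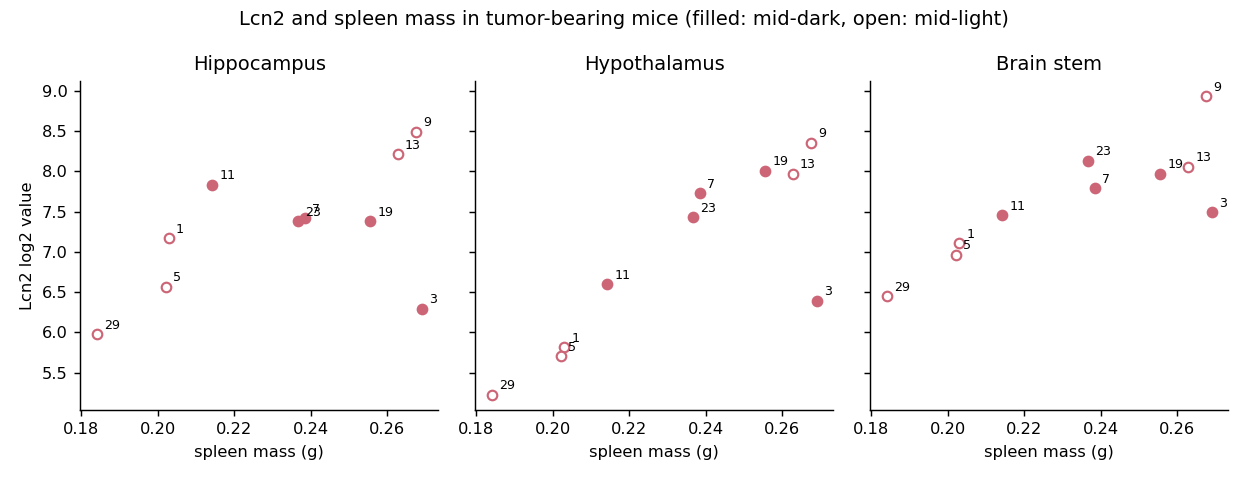
Lcn2 log2 value (y axis) against spleen mass in g (x axis) of the 10 tumor-bearing mice, one panel per region. Points are mice with their numbers, filled at mid-dark and open at mid-light. Mouse 3 lies to the lower right, with a spleen of 0.269 g and Lcn2 of 6.29 to 7.49.

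Genes with the pattern most like each member were named by Pearson's r over the 56 samples after each region's mean had been subtracted, as a description with no p value, since tumor status and shared samples enter it. For Lcn2 these were Ly6a, a surface antigen of brain endothelium among other cells (r = 0.79), Osmr, the oncostatin M receptor (0.72), Lrg1 (0.69), the transglutaminase Tgm2 (0.69) and the glucose transporter Slc2a1 (0.69). For Lrg1 they were Ly6a (0.72), Lcn2 (0.69), Slc2a1 (0.60), Osmr (0.60) and Ch25h, a cholesterol hydroxylase (0.58). Lcn2 and Lrg1 thus shared 3 of their 5 nearest genes while tumor status was left in. Once tumor status was taken out, no gene was in both lists of 5, as given below. The 2 genes still lay close, with Lcn2 at rank 2 of 769 for Lrg1 and Lrg1 at rank 6 for Lcn2. Cp lay closest to the interferon-inducible Ifitm3 (0.85) and Ifitm2 (0.82), the proteoglycan Srgn (0.83), the C1 inhibitor Serping1 (0.81) and Tgm2 (0.76), and Serpina3n to Nefl, the neurofilament light chain (0.56), Coa5 (0.51), Hprt (0.50), Il15ra (0.49) and Entpd2 (0.47). When the mean of each of the 12 groups was subtracted, which takes out tumor status and phase, Cp had r of 0.86 with Serping1, 0.85 with the secreted Fgl2, 0.84 with Ifitm3, 0.84 with Srgn and 0.82 with Ifitm2. The nearest genes of Lcn2 were then Il1r1, the interleukin-1 receptor (0.55), Cp (0.50), Tlr4 (0.49), Ifitm2 (0.49) and Tgm2 (0.48), and those of Lrg1 were Cd14 (0.47), Lcn2 (0.46), Map2k1 (0.43), Fcrlb (0.42) and Slc2a1 (0.41). For Serpina3n they were Nefl (0.69), Coa5 (0.65), Hprt (0.57), Entpd2 (0.56) and Ezh1 (0.55).

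Of 12 other acute phase and related genes on the panel, none passed the phase-averaged tumor contrast in any region, and their median difference was 0.01 in the hippocampus, 0.13 in the hypothalamus and 0.01 in the brain stem, against -0.01, 0.00 and -0.01 over all genes tested. C3, the central complement component, had differences of 0.06, 0.09 and 0.00 in that order. The most positive were C6 in hippocampus (0.55), F3, tissue factor, in hypothalamus (0.28) and Serping1 in brain stem (0.30), and the most negative were the pentraxin Ptx3 in hippocampus (-0.33) and Sftpd in hypothalamus (-0.05) and brain stem (-0.28).

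Of 29 listed genes of the cytokine pathways upstream of the acute phase response, 21 were on the panel. Of these, 2 passed, both receptors and both higher in brain stem of tumor-bearing mice, where 1.04% of all genes were higher by that test. They were Il1r1 (difference 0.60, standard error 0.083, limma adjusted p = 0.000295) and Osmr (0.44, standard error 0.080, adjusted p = 0.00648). This list, like the others, was chosen with earlier results of these data known, so the count and these p values describe it and do not test it. RNA purity moved with the groups in this region, and with only samples at a purity ratio of 1.8 or above the difference was 0.65 for Il1r1 (adjusted p = 0.0100) and 0.38 for Osmr (adjusted p = 0.150), so that Osmr no longer passed. Osmr had 0.32 in hippocampus (adjusted p = 0.166) and 0.28 in hypothalamus (adjusted p = 0.365), and Il1r1 had 0.01 and 0.40 (adjusted p = 0.989 and 0.365). The ligands Il1a, Il1b, Tnf and Clcf1 did not pass in any region, nor did Socs3, a feedback inhibitor of STAT3 signalling, with differences of 0.30, -0.03 and 0.08. Il6, Osm and Stat3 were not among the 21 measured genes of the list and are not covered here. The most negative were Nfkb2 in hippocampus (-0.10), Clcf1 in hypothalamus (-0.19) and Il1a in brain stem (-0.35). The list's medians were 0.03, 0.00 and 0.05. Of 13 genes listed for iron, copper and oxidative stress handling, 8 were on the panel: Gclc, Hif1a, Hmox1, Nfe2l2, Nqo1, Prdx1, Srxn1 and Txnrd1. None of these 8, mainly genes of oxidative stress handling, passed, and the other listed genes were not measured. That is near the share of all genes that were higher, 0.52%, 0.26% and 1.04% in hippocampus, hypothalamus and brain stem. Nqo1 was the most positive in each region (0.11, 0.19 and 0.17). The most negative were Prdx1 in hippocampus (-0.11), Nfe2l2 in hypothalamus (-0.07) and Hmox1 in brain stem (-0.08).

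Markers of brain and blood cell types were read beside the members, and whether fewer cells or less RNA per cell lies behind a level cannot be told apart in such tissue samples. No marker of astrocytes (7 measured), endothelial cells (7), microglia (8), neutrophils (5), lymphocytes (8), oligodendrocytes (7, of which 6 were tested in brain stem), neurons (6) or choroid plexus and ependyma (3) passed the tumor contrast in any region. Few genes passed at all, with 0.52%, 0.26% and 1.04% of those tested higher in hippocampus, hypothalamus and brain stem, so the markers are near that share. The summed level of the neutrophil markers, on a log2 scale, was 7.05 to 7.56 in tumor-bearing and 7.30 to 7.61 in vehicle injected mice in hippocampus, 6.99 to 7.39 and 6.96 to 7.30 in hypothalamus, and 6.86 to 7.16 and 6.81 to 7.51 in brain stem. Ly6g, which defines mouse neutrophils, was low in both groups, with differences of -0.53, 0.01 and 0.25 in hippocampus, hypothalamus and brain stem. Endothelial markers summed to 10.68 to 11.07 and 10.82 to 11.01 in hippocampus, 10.58 to 11.15 and 10.85 to 11.15 in hypothalamus, and 10.78 to 11.27 and 10.92 to 11.19 in brain stem. Astrocyte markers summed to 14.40 to 14.72 and 14.45 to 14.70, 14.91 to 15.12 and 14.81 to 14.99, and 14.78 to 15.25 and 14.72 to 14.98 in the same order. Neuron markers summed to 14.38 to 15.62 and microglia markers to 11.77 to 12.59 over all samples of the 3 regions. Ttr, the main secreted protein of choroid plexus, ran from 5.36 to 14.71 in hippocampus, from 6.49 to 13.77 in brain stem and from 4.33 to 5.34 in hypothalamus. Over the 56 samples less their region means, Ttr had r of -0.04 with Lcn2, -0.04 with Lrg1, -0.20 with Serpina3n and 0.03 with Cp. With the mean of each of the 12 groups subtracted, these were -0.26, -0.21, -0.18 and -0.02 in the same order. The part of Ttr in the levels of the members was not tested.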

How the data were processed

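Expression was measured in hippocampus, hypothalamus and brain stem of 20 mice, with groups taken from the region, tumor status and phase in the labels and replicates from the mouse number. Per the methods and labels, the authors subtracted negative control background and normalized nCounter counts to positive controls and codeset content in nSolver, then quantile normalized them in Partek. The log2 values of 770 genes that they deposited leave out samples judged outliers on raw data. Quantile normalization gives all samples one distribution, so a shift common to most genes would not be seen. Of 43120 values, 60 equal the lowest, -0.371716. The members and lists were chosen with earlier results of these data known.

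A limma 3.58.1 (R 4.3.3) model with 4 group means per region gave tumor, dark minus light and interaction contrasts, and a model over the 3 regions with 12 group means took the mouse as a random block (duplicateCorrelation, correlation 0.136), since same-numbered samples come from one animal. Adjusted p values are Benjamini-Hochberg over all genes of a contrast. A gene with 1 value throughout a region was not tested there. Correlations used 100000 permutations, or all orders under 10 mice, in Python 3.11.15 with numpy 2.4.6 and pandas 2.3.3, and plots were drawn with matplotlib 3.10.9. Mice are the replicates. Genes named beside the members are the 5 nearest by r, list genes that passed the tumor contrast and the most positive and most negative of each pathway list, and single genes added for their role (C3, Il1b, Tnf, Socs3, Ly6g and Ttr) were chosen after their values were seen. Promoter windows are RefSeq's for GRCm38.p6, with all 4 members matched by symbol. Models and permutation tests were tested on simulated data. Alternatives were sample medians subtracted, 16 added on the linear scale, a mean log2 value of at least 5, an RNA purity ratio of at least 1.8, quantile normalization within region or over all samples, only the groups compared, ordinary p values, the block, phase means subtracted, and leaving out each mouse. Leaving out mice 9 and 13, and the averages over regions of dark minus light and of the interaction, were added after the data were seen.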

Additional observations from a re-analysis of the deposited data

Results flagged for a closer look

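In 44 groups of 4 or 5 samples (4 members, the groups with enough samples), 2 held a sample far from the others of its group, where chance alone gives about 1 in 20. Lrg1 in hippocampus of tumor-bearing mouse 7 at mid-dark was 4.80, while the other 4 mice of that group lay between 5.31 and 5.37. Serpina3n in hypothalamus of vehicle injected mouse 6 at mid-light was 6.96, while the other 3 lay between 7.57 and 7.63. Without mouse 7 the phase-averaged tumor difference of Lrg1 in hippocampus was 0.82, and without mouse 6 that of Serpina3n in hypothalamus was -0.01.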

How the results depend on the processing

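Of 612 values of 105 results recomputed under 12 alternatives, 580 kept their direction and their side of the threshold or moved by less than the limits set for them, and so did 1949 of 2100 values with a mouse left out. The direction of the Lcn2, Lrg1 and Cp tumor differences was unchanged under these alternatives. For all values below the cause was not tested, except where fewer samples or an added constant enter by construction. Depth is unknown, and Lrg1, with a mean log2 value under 5, was not tested under that filter in the fits of single regions.

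With 16 added on the linear scale, the tumor difference of Lcn2 was 2.63 in hippocampus and 2.55 in brain stem, the interaction of Lrg1 in hypothalamus was -0.030 and that of Lcn2 averaged over regions 0.015, and in vehicle injected mice Lcn2 differed by -0.40 between hippocampus and brain stem (adjusted p = 0.147) and by 0.0046 between hypothalamus and brain stem. With the mouse number as a replicate block, 7 genes were higher in tumor-bearing mice in hippocampus, and without the replicate block 58 genes differed between dark and light in tumor-bearing mice on average over regions. In hypothalamus 1 gene was higher in tumor-bearing mice by ordinary p values and 1 without mice 9 and 13. With only the groups compared in the fit, genes past the dark minus light test numbered 10 in hippocampus and 0 in hypothalamus of vehicle injected mice, and in tumor-bearing mice 0 in hippocampus, 5 in hypothalamus, and 3 in the brain stem. With genes at a mean log2 value of at least 5, Lcn2 differed by -0.75 between hippocampus and hypothalamus of vehicle injected mice (limma adjusted p = 0.0409). That p value is a description and not a test, since Lcn2 met the filter only through its high values in tumor-bearing mice. In vehicle injected mice it averaged 3.53, 4.26 and 4.30 in hippocampus, hypothalamus and brain stem.

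With an RNA purity ratio of at least 1.8, 4 genes were higher in brain stem of tumor-bearing mice and 5 passed dark minus light in their hippocampus. The interaction was then 0.070 for Serpina3n in hippocampus, and in brain stem -0.22 for Lrg1, 0.0078 for Serpina3n and -0.16 for Cp. Averaged over regions it was -0.043 for Cp, and 0 genes passed. Dark minus light in vehicle injected mice was -0.0013 for Serpina3n and -0.016 for Cp in hippocampus and -0.080 for Serpina3n in brain stem, and in tumor-bearing mice -0.14 for Lcn2 in brain stem. Between regions of vehicle injected mice Lcn2 differed by -0.73 (hippocampus minus brain stem, adjusted p = 0.0645) and 0.013 (hypothalamus minus brain stem).

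Leaving out each mouse gave these ranges. Genes higher in hypothalamus of tumor-bearing mice numbered 0 to 3 (0 without mouse 28, 3 without mouse 5), and genes past the interaction in hippocampus 0 to 1. Interactions ran for Lcn2 from -0.47 to 0.16 in hippocampus, -0.48 to 0.76 in hypothalamus and -0.51 to 0.16 in brain stem, for Lrg1 from -0.21 to 0.13 in hypothalamus, for Serpina3n from -0.098 to 0.070 in hippocampus and -0.17 to 0.076 in brain stem, and for Cp from -0.018 to 0.21 in brain stem. Averaged over regions they ran from -0.37 to 0.31 for Lcn2, -0.0053 to 0.14 for Serpina3n and -0.050 to 0.14 for Cp. Genes past dark minus light in vehicle injected mice numbered 8 to 25 in hippocampus and 0 to 4 in hypothalamus, and in tumor-bearing mice 4 to 10 in hippocampus and 3 to 11 in brain stem. The differences in vehicle injected mice ran for Lcn2 from -0.042 to 0.30 in hippocampus and -0.14 to 1.10 in hypothalamus, for Serpina3n from -0.0013 to 0.16 in hippocampus and -0.080 to 0.17 in brain stem, and for Cp from -0.065 to 0.068 in hippocampus and -0.20 to 0.042 in hypothalamus. In tumor-bearing mice they ran from -0.35 to 0.28 for Lcn2, -0.30 to 0.15 for Lrg1 and -0.017 to 0.15 for Serpina3n in hippocampus, from -0.083 to 0.050 for Serpina3n and -0.15 to 0.037 for Cp in brain stem, and from -0.045 to 0.26 for Cp in hypothalamus. The regional averages ran from -0.075 to 0.070 for Serpina3n in vehicle injected mice, and in tumor-bearing mice from -0.025 to 0.65 for Lcn2, -0.0093 to 0.10 for Serpina3n and -0.12 to 0.072 for Cp. Between regions of vehicle injected mice, Lcn2 ran from -1.05 to -0.52 (hippocampus minus hypothalamus), -0.97 to -0.67 (hippocampus minus brain stem) and -0.28 to 0.38 (hypothalamus minus brain stem), Cp from -0.37 to -0.22 (hippocampus minus hypothalamus) and Lrg1 from -0.44 to -0.28 (hypothalamus minus brain stem). Correlations that passed numbered 3 to 5 between regions (3 without mouse 5, 9 or 29), 0 to 1 within a region and 0 to 3 with masses.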
